A study of Mus musculus with 6 samples.

Results

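The mevalonate pathway turns acetyl-CoA into farnesyl diphosphate, and the enzymes named for it here are 7 genes, Acat2, Hmgcs1, Mvk, Pmvk, Mvd, Idi1 and Fdps. They were taken by gene symbol from a table of 12149 genes measured in single mouse blastocysts, and 6 of the 7 were measured; Hmgcs1 was not analysed here. They were chosen by their reactions with the normalized counts of the Dep and Ctl groups already known, so the difference between the groups is given below as a description, without a test. The study asks whether small RNAs in the sperm of stressed males alter gene expression in the early embryo. In the Dep group (3 embryos), zygotes of the C57BL/6 background had received small RNAs from the sperm of males made depressive by stress, and in the Ctl group (3 embryos) small RNAs from the sperm of normal males. All 6 zygotes were thus microinjected, at 2 ng/µl, and there was no group without injection. Blastocysts were collected at embryonic day 3.5, about 96 h after injection, and by the labels each library is 1 embryo. Xist, expressed from the inactive X, and 4 Y-linked genes were both read in several libraries: Xist had 150.5, 3783.5 and 5589 normalized counts in Dep 1, 2 and 3, against 10312, 5518 and 874 in Ctl 1, 2 and 3, and the Y-linked genes summed to 4658, 571 and 2853 in Dep 1, 2 and 3, against 2.37, 3477 and 4514 in Ctl 1, 2 and 3. Dep 3 and Ctl 2 were thus high in both, although Xist is read mainly in female and Y-linked genes only in male embryos. Dep 2 and Ctl 3 also held both, with a lower Y-linked sum in Dep 2 and less Xist in Ctl 3. The source was not tested. Without Dep 3 the enzymes' median log2 difference given below as 1.10 was 0.90, and without Ctl 2 1.03. It was 1.11 without Dep 2 and 1.04 without Ctl 3. Whether embryos shared parents, an injection day or a sperm donor is not given in the labels, so the spread between embryos may hold technical variation.

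The pathway begins with the joining of acetyl-CoA units, passes through HMG-CoA to mevalonate, and then phosphorylates and decarboxylates mevalonate to isopentenyl diphosphate, the isoprenoid building block. Its end product feeds cholesterol, dolichol, ubiquinone and the lipid anchors of prenylated proteins. When membrane sterol is low, SREBP transcription factors are released from the endoplasmic reticulum and raise transcription of these enzymes, with NF-Y, which binds CCAAT boxes, as a frequent partner. Isoprenoid supply matters in preimplantation embryos for membrane synthesis and for the prenylation of small GTPases.

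In GRCm38, Acat2 lies on chromosome 17 (12942890 to 12960747, minus strand), Mvk on chromosome 5 (114444269 to 114460591, plus), Pmvk on chromosome 3 (89454541 to 89469013, plus), Mvd on chromosome 8 (122433601 to 122443422, minus), Idi1 on chromosome 13 (8885501 to 8892451, plus) and Fdps on chromosome 3 (89093588 to 89101959, minus), each annotated as protein-coding. RefSeq promoters (GRCm38.p6, 250 bases before to 50 after the start) were at hand for 5 of these 6 genes and not for Fdps. Both strands of each window were searched for short motifs. The sterol regulatory element TCACNCCAC had no match, and 1.24% of 32851 promoters of the same length hold it. The E-box TCACGTGA had no match either, and 0.974% of promoters hold it. These results say only that the letters are not in these windows. The NF-Y motif CCAAT, held by 37.4% of all promoters, was found in Mvk (5 matches), Mvd (2), Idi1 (2) and 1 of the 2 Pmvk promoters (1), and not in Acat2. At least 5 matches occurred in 0.271% of all promoters and at least 2 in 11.7%. GGGCGG, the Sp1 box, held by 35.7% of promoters, was found in Mvk (2), Mvd (1), Idi1 (1) and Acat2 (1). 4 of these promoters are printed to show where the CCAAT boxes lie, with matches to the NF-Y motif or the Sp1 box on either strand in capitals:
Mvk, chr5:114444019-114444318, plus strand: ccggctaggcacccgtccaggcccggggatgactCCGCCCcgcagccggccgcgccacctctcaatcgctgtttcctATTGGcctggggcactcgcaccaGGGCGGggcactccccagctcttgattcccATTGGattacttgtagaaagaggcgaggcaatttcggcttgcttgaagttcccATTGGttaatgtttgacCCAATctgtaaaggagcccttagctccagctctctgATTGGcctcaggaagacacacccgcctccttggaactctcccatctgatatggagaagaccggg
Mvd, chr8:122443373-122443672, minus strand: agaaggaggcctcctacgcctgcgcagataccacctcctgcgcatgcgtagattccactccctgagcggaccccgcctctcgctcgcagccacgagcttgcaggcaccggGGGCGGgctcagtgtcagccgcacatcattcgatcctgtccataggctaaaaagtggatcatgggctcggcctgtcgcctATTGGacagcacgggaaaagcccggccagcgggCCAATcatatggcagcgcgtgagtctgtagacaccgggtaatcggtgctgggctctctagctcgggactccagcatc
Idi1, chr13:8885356-8885655, plus strand: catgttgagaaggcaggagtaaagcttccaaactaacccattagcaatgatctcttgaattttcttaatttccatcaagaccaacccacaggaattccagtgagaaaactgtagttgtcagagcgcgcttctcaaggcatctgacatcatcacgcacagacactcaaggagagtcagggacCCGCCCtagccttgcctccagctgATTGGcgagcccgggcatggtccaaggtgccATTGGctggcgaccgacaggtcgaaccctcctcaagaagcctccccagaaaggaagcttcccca
Pmvk, chr3:89454291-89454590, plus strand: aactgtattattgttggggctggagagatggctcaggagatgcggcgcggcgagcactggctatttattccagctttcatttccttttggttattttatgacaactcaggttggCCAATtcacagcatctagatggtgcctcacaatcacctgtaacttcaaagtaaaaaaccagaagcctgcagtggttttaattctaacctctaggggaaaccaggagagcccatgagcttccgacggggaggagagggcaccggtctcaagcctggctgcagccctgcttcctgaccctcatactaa
Counted from the RefSeq start, the matches nearest to it lie at -14 to -10 in Mvk, -27 to -23 in Mvd, -14 to -10 in Idi1 and -136 to -132 in Pmvk. For Idi1 the RefSeq start lies after the gene start of 8885501 given above, and both of its CCAAT matches lie between these starts. A match describes the letters and is not evidence of a bound site.

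All 6 measured enzymes had a higher mean log2 level in Dep than in Ctl, against 48.2% of all 12149 genes, and the differences were uneven along the pathway. They ran from 0.30 for Pmvk to 1.66 for Fdps, with a median of 1.10, on the log2(normalized count + 1) scale, where the median over all genes was -0.02. In 4 of the 6 enzymes (Acat2, Mvd, Idi1 and Fdps) the lowest Dep embryo lay above the highest Ctl embryo, as it did in 3.09% of all genes; since the enzymes were put forward on this contrast, nothing is read from these shares. Over all genes, limma called 0 at an adjusted p of 0.05 (0%), so none of the enzymes, with 225 genes at an unadjusted p under 0.05 or 420 once the replicate number entered as a block. edgeR called 0 (211 unadjusted) and DESeq2 1 (279 unadjusted), which was Ly6a, a surface protein gene named here only for that count and after its values were seen. As libraries are whole embryos, fewer cells of a type and less RNA per cell cannot be told apart.

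**Figure D1:**
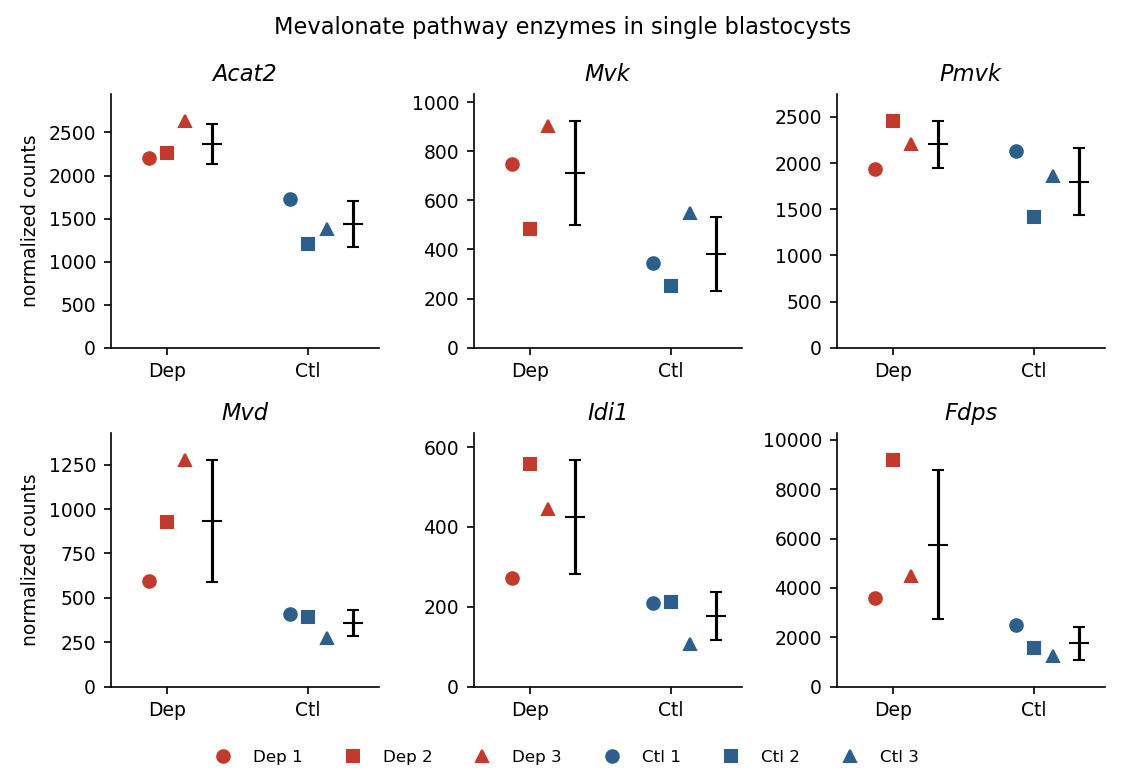
Normalized counts of the 6 measured enzymes in each embryo (points; vertical axes are linear and start at 0), with the mean and SD of each group (black, n = 3). The groups overlap for Mvk and Pmvk, and for the other enzymes every Dep embryo lies above every Ctl embryo; for Fdps, Dep 2 stands at 9198.

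The first enzyme, Acat2, is the cytosolic thiolase that joins 2 acetyl-CoA into acetoacetyl-CoA. It had 2201, 2258 and 2637 normalized counts in Dep 1, 2 and 3, against 1729, 1209 and 1379 in Ctl 1, 2 and 3. The Dep embryos were close together and above all Ctl embryos, with means of 2365 ± 237 in Dep and 1439 ± 265 in Ctl (SD, n = 3 each) and a log2 difference of 0.73 ± 0.26 (SE). Of the 50-base windows of its longest transcript, 45.9% also occur in transcripts of Acat3, a near-identical neighbour, or of Tcp1, so the division of reads between these genes is uncertain.

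The middle of the pathway holds the 2 kinases that act on mevalonate. Mvk, mevalonate kinase, had 747, 484 and 904 normalized counts in Dep 1, 2 and 3, against 346, 250.5 and 548 in Ctl 1, 2 and 3. Dep 2 lay below Ctl 3, so the groups overlapped, with means of 711 ± 212 in Dep and 381 ± 152 in Ctl (SD, n = 3 each) and a log2 difference of 0.93 ± 0.41 (SE). Pmvk, which adds the second phosphate, had 1940.1, 2455 and 2208 normalized counts in Dep 1, 2 and 3, against 2129, 1411 and 1857 in Ctl 1, 2 and 3. Dep 1 lay below Ctl 1, and the means were 2201 ± 257 in Dep and 1799 ± 363 in Ctl (SD, n = 3 each), a log2 difference of 0.30 ± 0.27 (SE). Pmvk was the enzyme with the smallest difference, and without Ctl 2 it was 0.14.

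The steps that make and use isopentenyl diphosphate had larger differences than the earlier ones with all embryos, an order that rests on single embryos: without Ctl 3 Mvk (1.22) exceeded Mvd (1.14) and Idi1 (0.94), and without Dep 2 Mvk (1.18) exceeded Idi1 (1.04). Mvd, the decarboxylase that yields isopentenyl diphosphate, had 595, 927 and 1277 normalized counts in Dep 1, 2 and 3, against 412, 392 and 276 in Ctl 1, 2 and 3. Even Dep 1 was above the highest Ctl embryo, with means of 933 ± 341 in Dep and 360.2 ± 73.3 in Ctl (SD, n = 3 each), a ratio of means of 2.59 and a log2 difference of 1.32 ± 0.38 (SE). Idi1, the isomerase that makes dimethylallyl diphosphate, had 273, 557 and 446 normalized counts in Dep 1, 2 and 3, against 211, 213 and 107 in Ctl 1, 2 and 3. Dep 1 lay nearest to the Ctl embryos and Ctl 3 stood lowest, and the means were 425 ± 143 in Dep and 177 ± 60.6 in Ctl (SD, n = 3 each), a ratio of 2.41 and a log2 difference of 1.27 ± 0.48 (SE). Ctl 3 rests on 121 reads, for which the exact 95% Poisson interval is 88.6 to 128 normalized counts, below the values of Ctl 1 and Ctl 2; it covers counting error only.

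Fdps, the synthase of farnesyl diphosphate at the end of the pathway, had 3598, 9198 and 4483 normalized counts in Dep 1, 2 and 3, against 2494, 1549 and 1223 in Ctl 1, 2 and 3. Dep 2 had more than the sum of the other 2 Dep embryos, and every Dep embryo exceeded every Ctl embryo. The means were 5759.7 ± 3010.0 in Dep and 1755 ± 659.9 in Ctl (SD, n = 3 each), a ratio of 3.28 and a log2 difference of 1.66 ± 0.39 (SE), which was 1.26 without Dep 2 and 1.94 without Dep 1 or without Ctl 1. Reads of 5 other annotated genes can match parts of Fdps, which share 11.7% of the 50-base windows of its longest transcript, and for Idi1 the share is 30.5%; for Mvk it is 0.858%, and for Pmvk and Mvd 0%. The authors' deposited table gives log2 folds of 0.72 for Acat2, 0.90 for Mvk, 0.29 for Pmvk, 1.37 for Mvd, 1.27 for Idi1 and 1.71 for Fdps.

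Embryo by embryo, Dep 3 exceeded all Ctl embryos in 6 of 6 enzymes, Dep 2 in 5 (all but Mvk) and Dep 1 in 5 (all but Pmvk). Dep 1 was the lowest Dep embryo in 5 of the 6 enzymes, and Ctl 1 the highest Ctl embryo in 4. The mean log2 level over the 6 enzymes was 10.12, 10.58 and 10.59 in Dep 1, 2 and 3, against 9.66, 9.27 and 9.25 in Ctl 1, 2 and 3. Relative to the Ctl mean, the last step stood above the first by 0.47, 1.79 and 0.53 on the log2 scale in Dep 1, 2 and 3. In Ctl 1, 2 and 3 the same measure was 0.29, 0.12 and -0.41, so Ctl 1 was not far from Dep 1 and Dep 3. The profile along the pathway was thus steepest in Dep 2, whose excess grew from Pmvk onwards, while Dep 1 and Dep 3 had a second high point at Mvk.

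**Figure D2:**
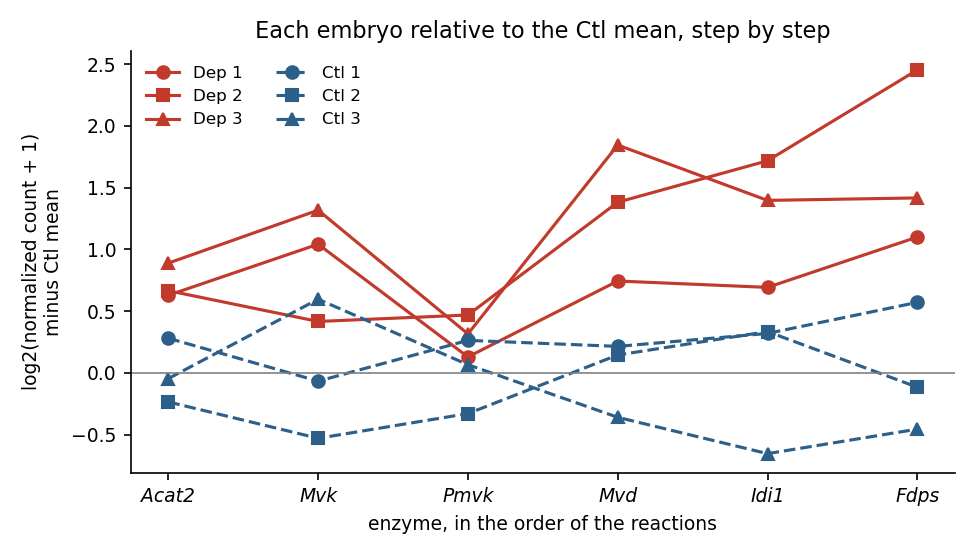
Log2(normalized count + 1) of each enzyme minus its mean over the 3 Ctl embryos, in the order of the reactions, with solid lines for Dep and dashed lines for Ctl embryos. The lines come together at Pmvk and are farthest apart at Fdps, where Dep 2 is at 2.45.

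Levels of different enzymes were compared as FPKM, reads scaled by exon length and by the library's reads in listed genes. By the median over 6 embryos, Pmvk was highest (62.7 FPKM), followed by Acat2 (38.1), Fdps (35.6), Mvd (13.5), Mvk (10.8) and Idi1 (3.55). Pmvk led in 5 of 6 embryos and Fdps in Dep 2, and Idi1 was lowest of the 6 enzymes in every embryo. The sequence that Acat2, Idi1 and Fdps share with other genes, given above, may shift their FPKM and the differences below. Its effect was not tested. Acat2 and Fdps changed places between embryos, Fdps being above Acat2 in Dep 2 and Dep 3 only, and Mvk was above Mvd in Ctl 3 only, so neither pair has a fixed order. With the length of the longest transcript in place of all exons, Fdps was also above Acat2 in Dep 1 and Ctl 1, and its median (50.7 FPKM) passed that of Acat2 (43.0). Fdps had 40.9, 121 and 65.0 FPKM in Dep 1, 2 and 3, against 30.3, 20.5 and 16.6 FPKM in Ctl 1, 2 and 3.

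**Figure D3:**
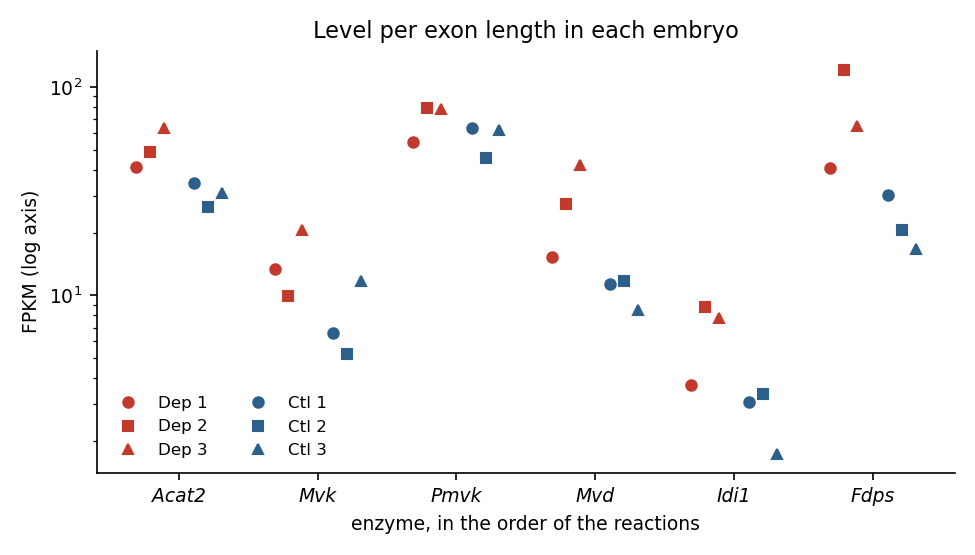
FPKM of the 6 measured enzymes in each embryo (log axis), in the order of the reactions, Dep left of Ctl. Pmvk, at 45.8 to 79.0 FPKM, stands above Mvk and Mvd, and levels fall further from Mvd to Idi1 in every embryo.

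Levels of enzymes that act one after the other differed in the same direction in all 6 embryos for each of the 4 measured pairs. Pmvk exceeded Mvk by 2.61 ± 0.58 on the log2(FPKM + 0.1) scale, and Mvd lay below Pmvk (-1.92 ± 0.69; SD, n = 6 embryos in both). Idi1 lay below Mvd (-1.98 ± 0.29) and Fdps exceeded Idi1 by 3.21 ± 0.40 (SD, n = 6 embryos in both). Each of the 4 gave p = 0.03125 by a two-sided exact sign-flip permutation test, the smallest that 6 embryos allow, and an adjusted p of 0.03125 over the 4 pairs by the exact test. The test asks only whether the levels of the paired enzymes differ. Any pair of genes with a gap that is large beside its spread between embryos gives this p. The share of other gene pairs that pass was not computed, so nothing particular to the pathway is read from it. Taking same-numbered Dep and Ctl embryos as 1 unit leaves 3 units, whose smallest exact p is 0.25, so none of the 4 passes the threshold with embryos paired by number. By group, the Mvd minus Pmvk difference was -1.41 ± 0.46 in Dep and -2.43 ± 0.45 in Ctl, and that of Pmvk minus Mvk 2.30 ± 0.58 in Dep and 2.92 ± 0.46 in Ctl (SD, n = 3 each). The difference of Idi1 minus Mvd was -2.02 ± 0.39 in Dep and -1.95 ± 0.24 in Ctl, and that of Fdps minus Idi1 3.41 ± 0.36 in Dep and 3.0 ± 0.38 in Ctl (SD, n = 3 each). The Mvd to Pmvk ratio is the one of the 4 whose Dep and Ctl embryos do not overlap; this uses the same contrast as the choice of enzymes and is a description.

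Within groups, the enzymes varied to different degrees. The within-group SD of the log2 level was 0.21 for Acat2 and 0.25 for Pmvk, and 5.84% and 9.28% of all genes had a smaller one. It was 0.45 for Mvd, 0.52 for Mvk, 0.55 for Idi1 and 0.62 for Fdps, near the median of 0.54 over all genes. After each group's mean was subtracted, levels correlated positively between enzymes in 12 of 15 pairs over the 6 embryos, with r of 0.80 for Idi1 and Fdps, 0.79 for Mvd and Idi1, and 0.77 for Acat2 and Pmvk. The other 3 pairs all involve Mvk, with r of -0.74 with Idi1, -0.63 with Fdps and -0.21 with Mvd. These are descriptions of 6 embryos that share the libraries and the scaling. The 15 pairs reuse the same 6 enzymes and are not independent. The share of positive pairs among other genes was not computed, so nothing is read from the count.

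**Figure D4:**
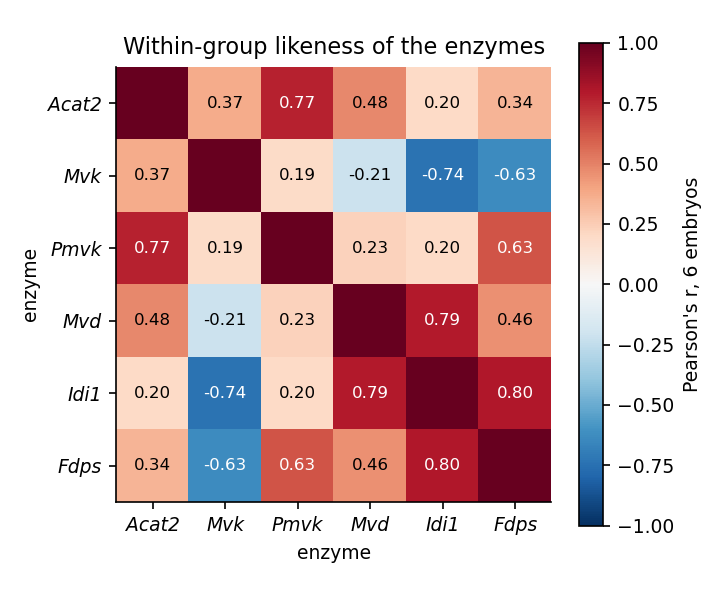
Pearson's r between enzymes over 6 embryos, computed from log2(normalized count + 1) after subtraction of each group's mean. Mvk is negative with Mvd, Idi1 and Fdps, and Idi1 and Fdps reach 0.80.

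Mvk starts 209 bases from the start of Mmab, on the opposite strand; Mmab makes adenosylcobalamin and was looked at for this position, after its values were seen. Mmab had 151, 457 and 354 normalized counts in Dep 1, 2 and 3, against 396, 279.7 and 192 in Ctl 1, 2 and 3. The Dep embryo with the lowest Mvk, Dep 2, had the highest Mmab, and the Ctl embryo with the highest Mvk, Ctl 3, had the lowest Mmab. The other extremes did not match in this way. Dep 3, with the highest Mvk of its group, had more Mmab than Dep 1, and Ctl 2, with the lowest Mvk, had less Mmab than Ctl 1. The Mvk promoter printed above reaches into the first bases of Mmab.

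Of 9607 genes with a mean of at least 100 normalized counts, those whose group-centred levels were most like the mean of the enzymes were Ppm1n, Rec114, Ankmy2, Orc1, Med23, Scyl2, Zfp715, Atrx, ENSMUSG00000087313 and Sbf2, with r from 0.980 to 0.997 over 6 embryos. As the highest of 9607 values from 6 embryos, r near 1 can arise here without a relation, and nothing is read from it. Orc1 encodes a subunit of the origin recognition complex, Med23 a Mediator subunit, Atrx a chromatin remodeller and Rec114 a meiotic recombination factor. All 10 had a lower mean log2 level in Dep than in Ctl, with differences from -1.14 to -0.14, opposite to the enzymes. They were high in Ctl 1 and low in Dep 1: Atrx had 4569.7, 6478 and 7298 normalized counts in Dep 1, 2 and 3, against 9319, 6524 and 6405 in Ctl 1, 2 and 3. Of 44 genes ranked from the lists of the pathway's surroundings, 22 had a positive and 22 a negative r, from 0.89 for Nfyb (rank 159 of 9607) to -0.87 for Trit1 (rank 9429), with a median of -0.0054.

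The medians of the gene lists around the pathway lay near the median of all genes, while single genes lay further from it on both sides. Of 4 measured genes of acetyl-CoA and HMG-CoA metabolism, 3 had a higher mean log2 level in Dep (median difference 0.18, and 0.053 without Dep 1 to 0.37 without Dep 3), and 0 passed the test in either direction. Acly, which makes cytosolic acetyl-CoA, had 2660.0, 5140.0 and 5638 normalized counts in Dep 1, 2 and 3, against 1847, 1554 and 1895 in Ctl 1, 2 and 3. Its groups do not overlap, with a log2 difference of 1.27 ± 0.32 (SE). Acly was the 1 of the 4 genes with every Dep embryo above every Ctl embryo, against 3.09% of all genes.

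Of 22 measured genes whose products use isoprenoid diphosphates, 12 were higher and 10 lower in Dep, with a median log2 difference of 0.08 and 0 past the test; the median was -0.14 without Ctl 1 and 0.20 without Ctl 2. Fdft1, the squalene synthase that draws farnesyl diphosphate into sterols, had 1831, 3719 and 2583 normalized counts in Dep 1, 2 and 3, against 1805, 709.7 and 1202 in Ctl 1, 2 and 3. Ggps1, which lengthens farnesyl to geranylgeranyl diphosphate, had 898, 888 and 459 normalized counts in Dep 1, 2 and 3, against 894, 891 and 886 in Ctl 1, 2 and 3. The 2 genes at this branch point thus lay on different sides of 0, at 1.17 ± 0.39 for Fdft1 and -0.31 ± 0.34 for Ggps1 (log2 difference, SE); for Ggps1, 5 of the 6 embryos lay between 886 and 898, and Dep 3 stood below them. Besides Fdft1, the groups did not overlap for Trit1, a tRNA isopentenyltransferase (0.54), and Cox10, the heme farnesyltransferase (0.52), both higher in Dep and named after their values were seen; with Fdft1 these are 3 of the 22, against 3.09% of all genes.

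Of 18 measured regulators of sterol synthesis and uptake, 9 were higher and 9 lower in Dep, with a median log2 difference of 0.0077 and 0 past the test; with 1 embryo left out the median lay between -0.12 and 0.14. Insig1, an SREBP target that holds the SREBP escort in the endoplasmic reticulum, had 844, 1844 and 995 normalized counts in Dep 1, 2 and 3, against 444, 427 and 645 in Ctl 1, 2 and 3, a log2 difference of 1.22 ± 0.37 (SE) without overlap. It was the 1 of the 18 regulators with every Dep embryo above every Ctl embryo, against 3.09% of all genes. Srebf2, the SREBP of sterol synthesis, had 231, 945 and 1475 normalized counts in Dep 1, 2 and 3, against 485, 316 and 552 in Ctl 1, 2 and 3. Dep 1 had the least Srebf2 of all embryos. The log2 difference of Srebf2 was 0.64 ± 0.60, and those of Srebf1, Scap and Insig2 were 0.27 ± 0.55, 0.24 ± 0.51 and -0.04 ± 0.34 (SE). Mylip, a ubiquitin ligase of the sterol response, was the 1 regulator with every Dep embryo below every Ctl embryo (log2 difference -1.82), as in 3.80% of all genes, and was named after its values were seen.

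**Figure D5:**
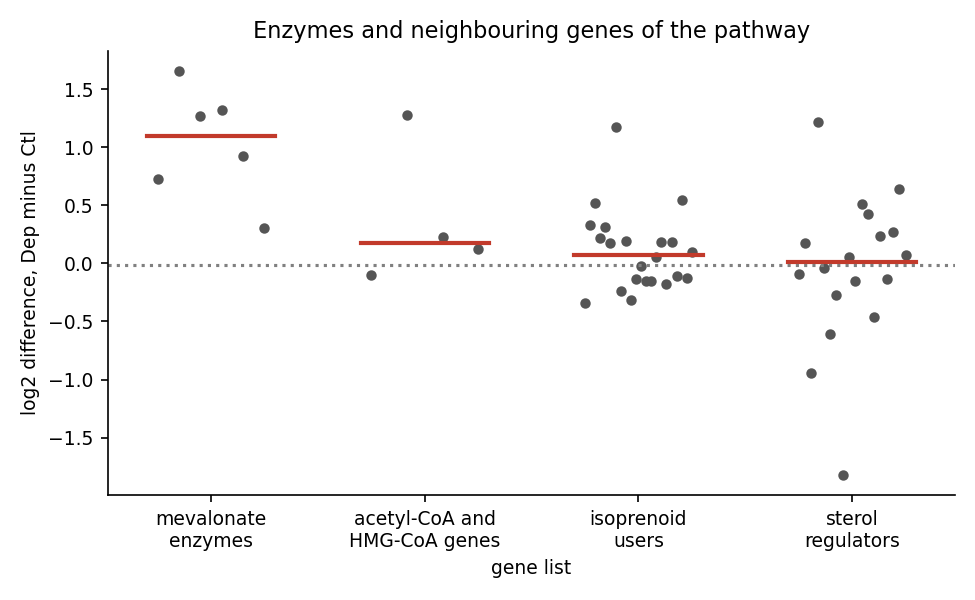
Log2 difference, Dep minus Ctl, of each measured gene (points) in 4 gene lists, with the median of each list (red bars) and of all 12149 genes (dotted line). The 6 enzymes have a median of 1.10, and the other lists 0.18, 0.08 and 0.0077.

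The libraries held 16543356 to 21548220 reads in listed genes, and single enzymes 121 to 9262 reads. In Dep 1, 691 genes of the table had no read, far more than the 5 to 106 of the remaining libraries, and without it the enzymes had a median log2 difference of 1.21. Mitochondrially encoded genes took 3.05% to 4.0% of reads in Dep and 3.85% to 7.04% in Ctl. All 9 epiblast and all 9 trophectoderm markers were measured. Summed epiblast markers were 11834 to 18082 normalized counts in Dep and 12642 to 14680.3 in Ctl. These sums hide that the mean log2 level of the epiblast markers was 7.61 in Dep 1, against 9.43 to 9.90 in the remaining embryos. Tdgf1 had 17.0 normalized counts in Dep 1, against 881 to 2402 in the remaining embryos, while Zfp42 was highest in Dep 1 (5741). Summed trophectoderm markers were 50670.1 to 139243 in Dep and 58619 to 103543 in Ctl, with Krt8, Krt18 and Id2 the highest of them in every embryo. Of 10 primitive endoderm markers 9 were measured, with sums of 20749 to 25903 in Dep and 20759 to 24461 in Ctl, of which Dab2 made up 52.3% to 85.3% in Dep and 62.7% to 68.2% in Ctl. Without Dab2 the sums were 3818, 8176 and 11771 in Dep 1, 2 and 3, against 7269, 9127 and 7597 in Ctl 1, 2 and 3. Of the 9, 6 had a higher mean log2 level in Dep, with a median log2 difference of 0.68. Gata4, Sox17 and Sox7 were at 0 in Dep 1, as was the epiblast gene Fgf4. Ctl 3 was low in the same endoderm genes, with Gata4 at 0, Sox17 at 0.88 and Sox7 at 9.71 normalized counts. In Dep 1, 2 and 3 the mean log2 level of the 9 was 6.16, 9.80 and 9.83. In Ctl 1, 2 and 3 it was 8.55, 9.52 and 6.64. Dep 1 had the lowest level of its group in 5 of the 6 enzymes. Ctl 3 was lowest of its group in Mvd, Idi1 and Fdps, and Ctl 2 in Acat2, Mvk and Pmvk. The part of lineage makeup in the enzymes' values was not tested. Of 9 markers of cumulus and granulosa cells, 0 were among the genes analysed here.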

How the data were processed

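By the labels, the data are RNA-seq libraries of 6 single blastocysts. The libraries that held both Xist and Y-linked reads, given above, leave this uncertain. Per the labels' protocols, embryos were lysed for SMART-Seq v4 cDNA synthesis, a kit that does not mark strand. Per the submitters' processing notes, HISAT2, Cufflinks 2.2.1 and mm10 were used, in roles that are not given; how reads were counted, and on which annotation, is not given in the sources used here. Each gene has 1 deposited signal value per library, which the values show to be reads scaled by 1 size factor for the whole library. Per the file headers the table also gives the authors' log2 fold change with its SE, a test score, and raw and adjusted p-values. Dividing by the step of the low values gave whole reads for 100% of values per library (tolerance 0.01); the Dep 2 step of 0.993 is close to 1, and it was read as a size factor because the column behaves like the others. DESeq2 on these reads matched the deposited log2 folds within 4.26e-08. Gene means in the table start at 14.2 normalized counts. Without molecular identifiers, reads cannot be taken as independent molecules.

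GENCODE M21 on GRCm38 (the mm10 assembly) supplied symbols, positions and exon lengths for 11829 of 12149 identifiers, and RefSeq the promoters. Log2(normalized count + 1) of all genes was fitted with limma 3.58.1 (Dep against Ctl with a mean-variance trend; Benjamini-Hochberg over all genes; threshold 0.05); the fit was tested on simulated data. FPKM used recovered reads and union exon length. R was 4.3.3 and Python 3.11.15. The enzymes and gene lists were chosen with earlier results of these data known; 2 genes of the lists are not reported here. Named are the 6 measured enzymes, the 10 genes of highest group-centred correlation, and genes at branch points and regulators from the lists. Alternatives were 2 other pseudocounts (10 and 0.5), a minimum mean of 100, TMM scaling, quantile normalization, library weights, no trend, edgeR 4.0.16 and DESeq2 1.42.0 on recovered reads, a replicate block and each embryo left out.

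Both groups are numbered 1 to 3 in the titles. Deviations from the group means correlated across genes between same-numbered embryos with r = 0.133, 0.151 and 0.129, each above the 0.1 taken as a sign of pairing; this comes from the data and not from the labels. The fit has no block, and all SEs come from it; the numbers enter as a replicate block in an alternative, and for the FPKM test as 3 units of same-numbered embryos, an alternative chosen after seeing the data, like FPKM by longest transcript for the order of levels. No 2 libraries of a group agreed within sampling noise (chi-square of reads).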

Additional observations from a re-analysis of the deposited data

How the results depend on the processing

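A minimum mean of 100, no trend and the replicate block cannot move the enzyme differences. In the other 13 alternatives all 6 enzymes had a higher mean log2 level in Dep, and the 78 enzyme values lay between 0.14 and 2.01. None of the 78 moved by 1 within-group SD. Leaving out an embryo cannot move a value that far with groups of this size, so this count rests on the settings with all embryos. For the 4 enzymes without overlap, leaving out an embryo cannot turn the direction either. The median log2 difference of the enzymes was 1.07 to 1.13 with all embryos, and 0.90 to 1.21 with an embryo left out. Genes past the adjusted threshold numbered 0 in every alternative but DESeq2 on recovered reads, which called 1. With the replicate block the enzymes' median stays 1.10 by construction and 0 genes passed; genes at an unadjusted p under 0.05 were 420 with it, 399 with library weights and 122 to 576 with an embryo left out. For the 4 FPKM differences between successive enzymes, 5 embryos cannot give a p under 0.0625, so leaving one out ends each call by construction; the values were 2.48 to 2.75 for Pmvk minus Mvk, -2.12 to -1.74 for Mvd minus Pmvk, -2.05 to -1.90 for Idi1 minus Mvd and 3.10 to 3.34 for Fdps minus Idi1. With the replicate block as 3 units the values are by construction 2.61, -1.92, -1.98 and 3.21 and the exact p 0.25, so each call ends. All 4 kept their direction and call with the longest transcript as length and with a pseudocount of 1. Enzymes had 121 to 9262 reads per library, and the parts of read depth and of spread between embryos in the precision were not tested.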
